A study of Mus musculus with 12 samples.

Results

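The 10 receptor and co-receptor genes of Wnt signalling described here were the frizzled genes Fzd1, Fzd2, Fzd4, Fzd7 and Fzd8, the co-receptor genes Lrp4, Lrp5 and Lrp6, and the genes of the alternative receptors RYK and ROR2. They were chosen by symbol, and all 10 were present once each among the 39032 genes of the table. The libraries were made from poly(A) RNA of MC3T3-E1 subclone 14, a wild-type clonal line of mouse pre-osteoblasts that forms bone-like matrix in culture, so every value comes from 1 subclone without other tissue cells. Cells were kept for 5 days in osteogenic medium, which holds 10% fetal bovine serum, ascorbic acid phosphate at 50 µg/ml and β-glycerophosphate at 5 mM. The 4 arms of 3 independent biological replicates each received vehicle (Control), recombinant RSPO2 at 200 ng/ml, recombinant BMP2 at 100 ng/ml, or both proteins at these doses (BMP2+RSPO2). RSPO2 (R-spondin 2) is a secreted protein that raises the sensitivity of cells to Wnt, and BMP2 (bone morphogenetic protein 2) is a bone-forming growth factor. The study asked which transcriptional programs the proteins control alone and together.

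Frizzled proteins are membrane receptors with an outer cysteine-rich domain that holds the Wnt ligand, and LRP5 or LRP6 joins them to start the canonical pathway, which stabilizes β-catenin. R-spondins bind LGR receptors and remove the ubiquitin ligases RNF43 and ZNRF3, which otherwise clear frizzled and LRP6 proteins from the cell surface, so that receptor protein can change without a change in receptor RNA. RYK and ROR2 bind Wnt ligands such as WNT5A and signal mostly without β-catenin, and LRP4, a relative of LRP5 and LRP6, anchors the Wnt antagonist sclerostin in bone.

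Fzd1, Fzd2 and Fzd7 are close paralogs, and Fzd2 and Fzd7 carried most of the RNA of the frizzled members here. Fzd5, which is not a member, averaged 13.9 FPKM with BMP2, above both of them in that arm. A stretch of coding sequence in which the genes are most alike is shown because reads from it could be assigned to the wrong gene. The 90 bases are from the GENCODE annotation of GRCm38, read 5′ to 3′ on the coding strand. Each lies in the single exon of its gene, and the 19 positions at which the genes are not all identical are in capitals.
Fzd1, chr5:4756945-4757034 (− strand): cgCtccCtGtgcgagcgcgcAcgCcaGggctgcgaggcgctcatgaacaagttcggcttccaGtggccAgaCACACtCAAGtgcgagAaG
Fzd2, chr11:102605077-102605166 (+ strand): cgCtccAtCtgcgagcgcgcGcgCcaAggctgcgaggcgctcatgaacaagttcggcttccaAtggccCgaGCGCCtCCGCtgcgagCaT
Fzd7, chr1:59483320-59483409 (+ strand): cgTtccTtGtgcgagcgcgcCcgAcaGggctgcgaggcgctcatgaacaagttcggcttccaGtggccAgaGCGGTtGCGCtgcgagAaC
The longest run of bases shared by all of Fzd1, Fzd2 and Fzd7 was 35. The longest run in a pair was 47 bases for Fzd1 with Fzd2, 47 for Fzd1 with Fzd7 and 38 for Fzd2 with Fzd7. No stretch of 50 bases from the annotated transcript of these or of any other member except Fzd4 occurred in the transcripts of another gene, and for Fzd4 the share was 0.15%.

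Values are FPKM, fragments scaled to transcript length and to the number of mapped fragments, so levels can be set side by side between genes. The table gives FPKM alone, and how deeply each library was sequenced is unknown. BMP2+RSPO2 replicate 1 stood apart: its FPKM summed to 635139, against 322074 to 380507 in the other libraries, and its 10 highest genes held 57.8% of the sum, against 11.4% to 19.8%. The first replicate of each arm also differed from the other two in a list of 12 proliferation genes, whose summed FPKM was 322 to 612 in the first replicates and 89.2 to 235 in the others. Of 10 osteoblast markers 9 were in the table, all of them were detected, and their summed FPKM ranged from 9461 to 34489. The first replicate had the lowest sum in every arm. In replicates 1, 2 and 3 it was 10326, 14994 and 15265 in Control and 9461, 11604 and 13497 in RSPO2. It was 19675, 22811 and 21471 in BMP2, and 21084, 33695 and 34489 in BMP2+RSPO2. Tests used limma on log2(FPKM + 1) over the 11548 genes that reached 1 FPKM in 3 or more libraries, and a gene was called at a Benjamini-Hochberg adjusted p under 0.05. Log2 changes are on this log2(FPKM + 1) scale and are given with their SE, and they understate the change of low genes.

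The median log2 change of all tested genes was -0.26 in BMP2+RSPO2 against Control, -0.19 against BMP2 and -0.26 against RSPO2. Median-of-ratios scaling, which sets the typical gene equal between libraries, brought these medians to between -0.03 and -0.04. The split of calls in BMP2+RSPO2 against Control was 421 higher and 2235 lower on the deposited FPKM, and 770 higher and 869 lower after that scaling. Changes of the members in that arm are therefore given on the deposited scale and after median-of-ratios scaling, the second of which is relative to the typical gene.

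In Control, Ryk was the highest of the 10 genes at 26.8 FPKM ± 0.470 (SD, n = 3), followed by Fzd7 at 20.6 ± 0.876, Lrp4 at 19.2 ± 2.40 and Fzd2 at 17.1 ± 3.21. The libraries of Fzd7 and Lrp4 overlapped, as did those of Lrp4 and Fzd2, so their order is not resolved. Ror2 followed at 12.7 ± 0.707 and Lrp6 at 10.6 ± 0.475. Fzd8, Lrp5 and Fzd1 lay between 4.57 and 6.08 on average, and Fzd4 was lowest at 0.553 ± 0.190. Over all 12 libraries the mean of Ryk exceeded that of 83.6% of the tested genes and the mean of Fzd1 exceeded that of 39.7%.

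**Figure D1:**
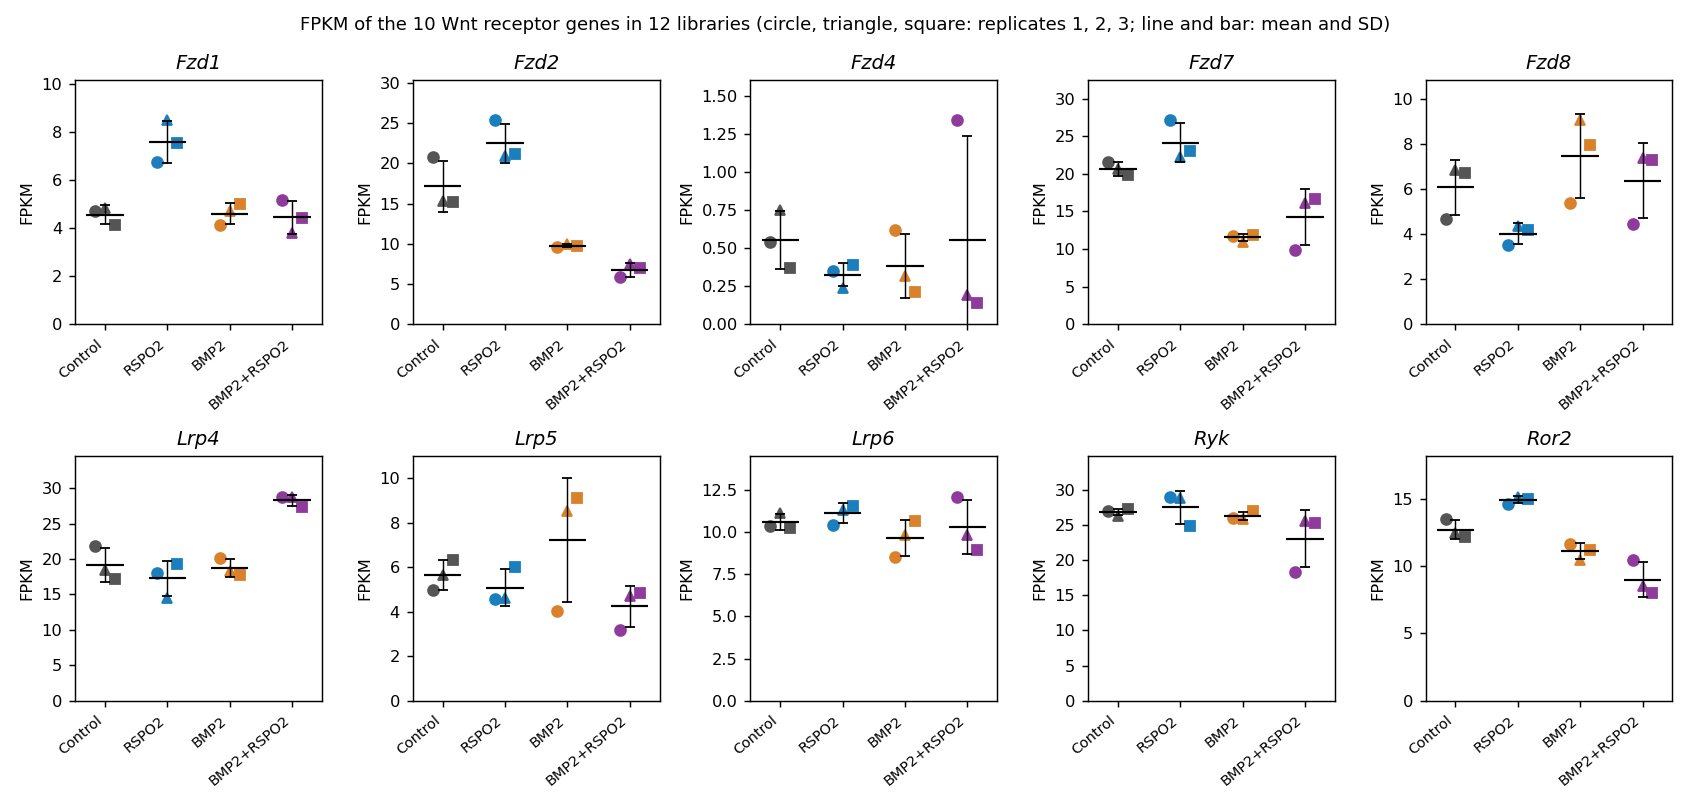
FPKM (y axis, from 0) of the 10 receptor genes in each library of the 4 arms (x axis), with circle, triangle and square for replicates 1, 2 and 3 and a line and bar for the mean and SD. Fzd2 lies between 15.2 and 20.8 in Control and between 5.85 and 7.52 in BMP2+RSPO2, and Lrp4 lies between 27.4 and 28.8 in BMP2+RSPO2, above all other libraries.

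With RSPO2 alone no member passed the test, with BMP2 alone Fzd2 and Fzd7 fell, and with both proteins Fzd2, Fzd7 and Ror2 fell and Lrp4 rose against Control. Relative to the typical gene, the falls of Fzd7 with BMP2 alone and of Fzd7 and Ror2 with both proteins did not pass the test. The falls of Fzd2 with BMP2 alone and with both proteins and the rise of Lrp4 did. On the deposited scale the call of Fzd2 with BMP2 alone was lost when any single Control or BMP2 library was left out. Of the 10 members 9 were tested, because Fzd4 failed the filter. The comparisons against Control share the same 3 Control libraries. In a bulk culture, fewer cells that express a gene and less RNA of it per cell cannot be told apart.

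Fzd2, a receptor used by canonical and non-canonical Wnt ligands, had the largest log2 change of the 9 tested members with both proteins against Control and against RSPO2. Its FPKM was 20.8, 15.3 and 15.2 in Control replicates 1, 2 and 3, 25.3, 20.9 and 21.2 in RSPO2, 9.65, 9.95 and 9.73 in BMP2, and 5.85, 7.52 and 6.99 in BMP2+RSPO2. Every RSPO2 library was above every Control library, every BMP2 library was below them, and every BMP2+RSPO2 library was below the BMP2 libraries. Against Control, Fzd2 was 1.75-fold lower with BMP2 (log2 change -0.74 ± 0.14, adjusted p 0.0274) and 2.52-fold lower with both proteins (-1.21 ± 0.14, adjusted p 0.000408). Against RSPO2, it was 3.31-fold lower with both proteins (-1.59 ± 0.14, adjusted p 4.51e-05). After median-of-ratios scaling these changes were -0.67, -0.97 and -1.34 and all passed the test, with adjusted p-values of 0.0203, 0.000638 and 5.57e-05. The log2 change of 0.38 ± 0.14 with RSPO2 alone did not pass the test (adjusted p 1.00), and neither did the change from BMP2 to both proteins (-0.47 ± 0.14, adjusted p 0.0756).

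The call of Fzd2 with BMP2 alone was lost when any 1 of its 6 libraries was left out, but kept on replicates 2 and 3 alone (limma, -0.59, adjusted p 0.00461). Leaving out Control replicate 1, 2 or 3 gave an adjusted p of 0.0872, 0.0619 or 0.0587, and leaving out BMP2 replicate 1, 2 or 3 gave 0.0805, 0.105 or 0.118. Fzd2 remained called with both proteins, against Control and against RSPO2, in each of the 12 fits that left out 1 library. The summed FPKM of the 5 smooth muscle markers was also lower in the arms with BMP2. It was 1255 to 1553 in Control, 1159 to 1667 in RSPO2, 701 to 753 in BMP2 and 292 to 321 in BMP2+RSPO2. Control and RSPO2 overlapped in this sum, unlike in Fzd2. None of the markers was listed at 0 throughout, and 3 of 3 tested fell with both proteins against Control, where 19.4% of tested genes were called lower. Their part in the Fzd2 result was not tested.

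Fzd7, a frizzled known for canonical signalling in stem and progenitor cells, was called lower with BMP2 and with both proteins on the deposited scale, with adjusted p-values close to the threshold. Its FPKM was 21.5, 20.6 and 19.8 in Control, 27.1, 22.2 and 23.0 in RSPO2, 11.8, 11.0 and 11.9 in BMP2, and 9.94, 16.1 and 16.6 in BMP2+RSPO2. The BMP2 and BMP2+RSPO2 libraries were all below Control, and BMP2+RSPO2 replicate 1 was below the BMP2 libraries while replicates 2 and 3 were above them. Fzd7 was 1.79-fold lower with BMP2 than in Control (log2 change -0.79 ± 0.17, adjusted p 0.0483) and 1.45-fold lower with both proteins (-0.54 ± 0.17, adjusted p 0.0409). It was 1.70-fold lower with both proteins than with RSPO2 (-0.75 ± 0.17, adjusted p 0.00920). These calls were lost after median-of-ratios scaling, where the changes were -0.72, -0.29 and -0.49 with adjusted p-values of 0.0503, 0.229 and 0.0557. On the deposited scale the call with BMP2 alone was also lost with a pseudocount of 0.1 (adjusted p 0.0589) and without the filter on low values (0.0844), and the call with both proteins against Control without that filter (0.0701). The call with BMP2 alone was kept in 1 of the 12 fits that left out 1 library, the one without BMP2+RSPO2 replicate 1 (adjusted p 0.00168), and lay between 0.0503 and 0.203 in the others. The call with both proteins against Control was kept in 4 of the 12 fits, and the adjusted p was highest, at 0.113, without Control replicate 1. That change was -0.32 (adjusted p 0.0445) without BMP2+RSPO2 replicate 1. Without BMP2+RSPO2 replicate 1, Fzd7 was higher with both proteins than with BMP2 (0.47, adjusted p 0.0285), where the fit with all libraries gave 0.25 ± 0.17 (adjusted p 0.358). On replicates 2 and 3 alone limma called Fzd7 in each of these comparisons. Against Control the changes were -0.77 with BMP2 (adjusted p 0.00229) and -0.29 with both proteins (0.0190). With both proteins they were -0.45 against RSPO2 (0.00362) and 0.48 against BMP2 (0.00547).

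Fzd1, which acts mainly in canonical signalling, was highest in the RSPO2 arm. Its FPKM was 4.72, 4.85 and 4.13 in Control, 6.75, 8.49 and 7.56 in RSPO2, 4.12, 4.71 and 5.00 in BMP2, and 5.17, 3.79 and 4.44 in BMP2+RSPO2. The RSPO2 libraries lay above all 9 others, and the other arms overlapped. The 1.66-fold higher mean with RSPO2 did not pass the test over all genes (log2 change 0.62 ± 0.13, unadjusted p 0.000566, adjusted p 0.217). Fzd1 was 1.70-fold lower with both proteins than with RSPO2 (-0.66 ± 0.13, adjusted p 0.00493), a call lost after median-of-ratios scaling (-0.42, adjusted p 0.0757).

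Fzd8, another canonical receptor, and Fzd4, the receptor of the ligand norrin, did not pass the test in any comparison of the 4 arms with the main settings. Fzd8 was at 4.67, 6.87 and 6.71 FPKM in Control, 3.52, 4.37 and 4.21 in RSPO2, 5.40, 9.06 and 7.97 in BMP2, and 4.48, 7.38 and 7.30 in BMP2+RSPO2. In every arm the first replicate was the lowest, and the RSPO2 libraries were below all 9 others. The log2 change with RSPO2 was -0.48 ± 0.22 (95% interval -0.96 to 0.00168, adjusted p 1.00), and from RSPO2 to both proteins it was 0.53 ± 0.22 (adjusted p 0.0962, and 0.0267 without BMP2+RSPO2 replicate 1). With all libraries and the replicate number added to the limma fit as a block, the change from RSPO2 to both proteins was called (adjusted p 0.00535). Fzd4 was between 0.14 and 0.75 FPKM in 11 libraries and at 1.34 in BMP2+RSPO2 replicate 1, and without the filter its adjusted p was 0.737 or more in all 6 comparisons.

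Lrp4, which encodes a co-receptor for agrin and sclerostin, was the only member called higher with the main settings. Its FPKM was 21.8, 18.4 and 17.2 in Control, 18.1, 14.5 and 19.3 in RSPO2, 20.2, 18.4 and 17.7 in BMP2, and 28.8, 28.8 and 27.4 in BMP2+RSPO2. All 3 libraries with both proteins were above the 9 others, which overlapped between arms. Lrp4 was 1.48-fold higher with both proteins than in Control (log2 change 0.55 ± 0.12, adjusted p 0.0119), 1.51-fold higher than with BMP2 (0.57 ± 0.12, adjusted p 0.0354) and 1.64-fold higher than with RSPO2 (0.69 ± 0.12, adjusted p 0.00328). After median-of-ratios scaling the changes were 0.80, 0.76 and 0.96, with adjusted p-values of 0.00144, 0.00997 and 0.000324. With either protein alone the change against Control was -0.14 ± 0.12 (RSPO2, adjusted p 1.00) and -0.02 ± 0.12 (BMP2, adjusted p 0.999), and the second was 0.04 after the scaling.

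The Lrp4 rise against Control and against RSPO2 was called in all 12 fits that left out 1 library. The rise against BMP2 was called in 5 of the 12. Leaving out Control replicate 2 or 3 gave an adjusted p of 0.0604 or 0.0529. The value was 0.0604, 0.115 or 0.122 when BMP2 replicate 1, 2 or 3 was dropped, and 0.0810 or 0.0589 when BMP2+RSPO2 replicate 2 or 3 was.

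Lrp5 and Lrp6, the co-receptors of the canonical pathway, did not pass the test in any comparison of the 4 arms with the main settings. Lrp6 was at 10.4, 11.1 and 10.3 FPKM in Control, 10.5, 11.3 and 11.6 in RSPO2, 8.53, 9.82 and 10.7 in BMP2, and 12.1, 9.85 and 8.96 in BMP2+RSPO2, and all arms overlapped. The 95% interval of its log2 change with both proteins against Control was -0.31 to 0.22. Lrp5 was at 4.95, 5.65 and 6.32 in Control, 4.55, 4.62 and 6.02 in RSPO2, 4.03, 8.52 and 9.09 in BMP2, and 3.17, 4.71 and 4.82 in BMP2+RSPO2. The first replicate of Lrp5 was the lowest in every arm, most of all with BMP2, where the SD was 2.77. From BMP2 to both proteins the log2 change of Lrp5 was -0.60 ± 0.25 (adjusted p 0.166), and without BMP2 replicate 1 it was -0.92 (adjusted p 0.0362). With all libraries and the replicate number added to the limma fit as a block, it was called (adjusted p 0.0450).

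Ryk encodes a receptor with an inactive kinase domain, and Ror2 encodes a receptor tyrosine kinase that WNT5A binds. Ryk was at 27.0, 26.3 and 27.3 FPKM in Control, 29.0, 28.8 and 24.8 in RSPO2, 26.0, 25.9 and 26.9 in BMP2, and 18.4, 25.5 and 25.3 in BMP2+RSPO2. BMP2+RSPO2 replicate 1 was the lowest library of Ryk by far, and no comparison of Ryk was called. Ror2 was at 13.5, 12.5 and 12.2 in Control, 14.6, 15.1 and 15.0 in RSPO2, 11.7, 10.46 and 11.2 in BMP2, and 10.45, 8.52 and 7.97 in BMP2+RSPO2. The arms of Ror2 ran from RSPO2, the highest, through Control and BMP2 to both proteins without overlap, although BMP2+RSPO2 replicate 1 was level with BMP2 replicate 2. Ror2 was 1.42-fold lower with both proteins than in Control (log2 change -0.46 ± 0.11, adjusted p 0.0122) and 1.66-fold lower than with RSPO2 (-0.68 ± 0.11, adjusted p 0.00155). After median-of-ratios scaling the change against Control was -0.23 (adjusted p 0.192), no longer called, and that against RSPO2 was -0.43 (adjusted p 0.0230). With RSPO2 alone the change was 0.22 ± 0.11 (adjusted p 1.00) and with BMP2 alone it was -0.18 ± 0.11 (adjusted p 0.701).

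The bases before the start sites are shown for Fzd7 and Ror2, the genes called lower with both proteins against Control that have an entry in the RefSeq table of GRCm38.p6. Of the 10 members, 5 matched that table (Fzd1, Fzd4, Fzd7, Ror2 and Ryk), and Fzd2, Fzd8, Lrp4, Lrp5 and Lrp6 did not. The bases just after the start were found in a GENCODE transcript of the gene for Fzd4, Ror2 and Ryk. For Fzd1 and Fzd7 they were not, so these windows rest on a RefSeq start that was not matched in GENCODE. The 250 bases end at the base before the start and are read 5′ to 3′ on the gene's strand, with matches to GGCGCC, a GC-rich motif of BMP-responsive SMAD proteins, in capitals.
Fzd7, chr1:59481897-59482146 (+ strand): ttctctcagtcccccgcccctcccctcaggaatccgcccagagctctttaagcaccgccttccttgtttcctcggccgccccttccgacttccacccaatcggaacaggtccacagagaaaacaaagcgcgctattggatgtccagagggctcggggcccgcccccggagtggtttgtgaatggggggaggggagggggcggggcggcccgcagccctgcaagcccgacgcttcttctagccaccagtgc
Ror2, chr13:53286125-53286374 (− strand): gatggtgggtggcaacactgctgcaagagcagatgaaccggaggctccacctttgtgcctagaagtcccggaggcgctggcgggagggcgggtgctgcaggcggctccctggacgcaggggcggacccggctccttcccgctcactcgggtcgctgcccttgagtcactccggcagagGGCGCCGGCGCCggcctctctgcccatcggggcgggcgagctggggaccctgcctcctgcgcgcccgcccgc
GGCGCC was searched on both strands, which are identical for this motif. It occurred in 9.586% of the 32851 promoters of the same length, with 2 adjoining matches in Ror2, 1 in Fzd4 and none in Fzd1, Fzd7 or Ryk. CTTTGAA or CTTTGAT, the core motif of the Wnt-responsive TCF/LEF factors, was searched on both strands. It occurred in 7.479% of the promoters and in none of the 5 members, which says only that these letters are not in this window.

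Read against all genes, the calls were as follows. With RSPO2 against Control, limma called 0 of 9 tested members, where it called 0.0779% of all tested genes, and 2 members (Fzd1 and Fzd2) had an unadjusted p under 0.05. In addition, 4 members had RSPO2 libraries entirely above Control (Fzd1, Fzd2, Fzd7 and Ror2), against 5.81% of all tested genes, and Fzd8 had them entirely below, against 3.52%. The median log2 change of the 9 members was 0.06, beside 0.01 for all tested genes.

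With BMP2 against Control, 2 of 9 were called lower (Fzd2 and Fzd7), where 1.00% of tested genes were called lower and 1.52% in either direction. The median of the members was -0.03, beside -0.06 for all tested genes. With both proteins against Control, 3 were called lower (Fzd2, Fzd7 and Ror2) and 1 higher (Lrp4), where 19.4% of tested genes were called lower and 3.65% higher, 23.0% in all. The members' median of -0.22 lay beside -0.26 for all tested genes, and single members ran from -1.21 (Fzd2) to 0.55 (Lrp4). After median-of-ratios scaling the calls were 1 lower (Fzd2) and 1 higher (Lrp4), where 7.55% of tested genes were lower and 6.69% higher.

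With both proteins against BMP2, 1 of 9 was called (Lrp4, higher), where 0.641% of tested genes were called higher and 4.38% in either direction. This count ran from 0 to 3 over the fits that left out 1 library. It was 3 (Fzd7 and Lrp4 higher, Ror2 lower) without BMP2+RSPO2 replicate 1, where 172 of all tested genes were called higher and 537 lower. Against RSPO2, 4 were called lower (Fzd1, Fzd2, Fzd7 and Ror2) and 1 higher (Lrp4), where 21.8% were called lower and 4.32% higher, 26.1% in all. After median-of-ratios scaling 2 were lower (Fzd2 and Ror2) and 1 higher (Lrp4), where 8.30% of tested genes were lower and 7.33% higher.

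**Figure D2:**
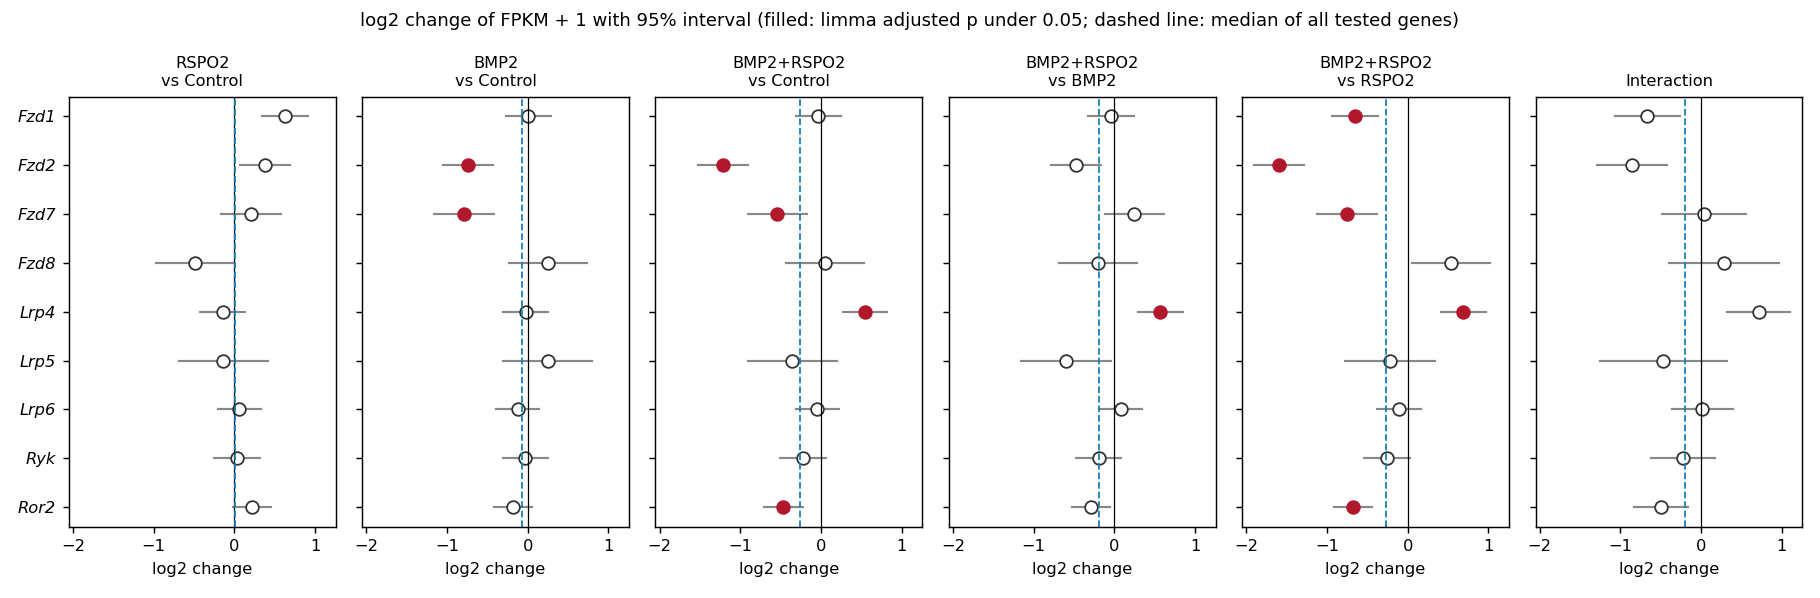
Log2 change (x axis) of the 9 tested members in the 6 comparisons, with 95% intervals as bars, filled points for an adjusted p under 0.05 and a dashed line for the median of all tested genes. Fzd2 is farthest to the left with both proteins, at -1.21 against Control and -1.59 against RSPO2, and Lrp4 lies on the right in the 3 comparisons of the BMP2+RSPO2 arm.

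**Figure D3:**
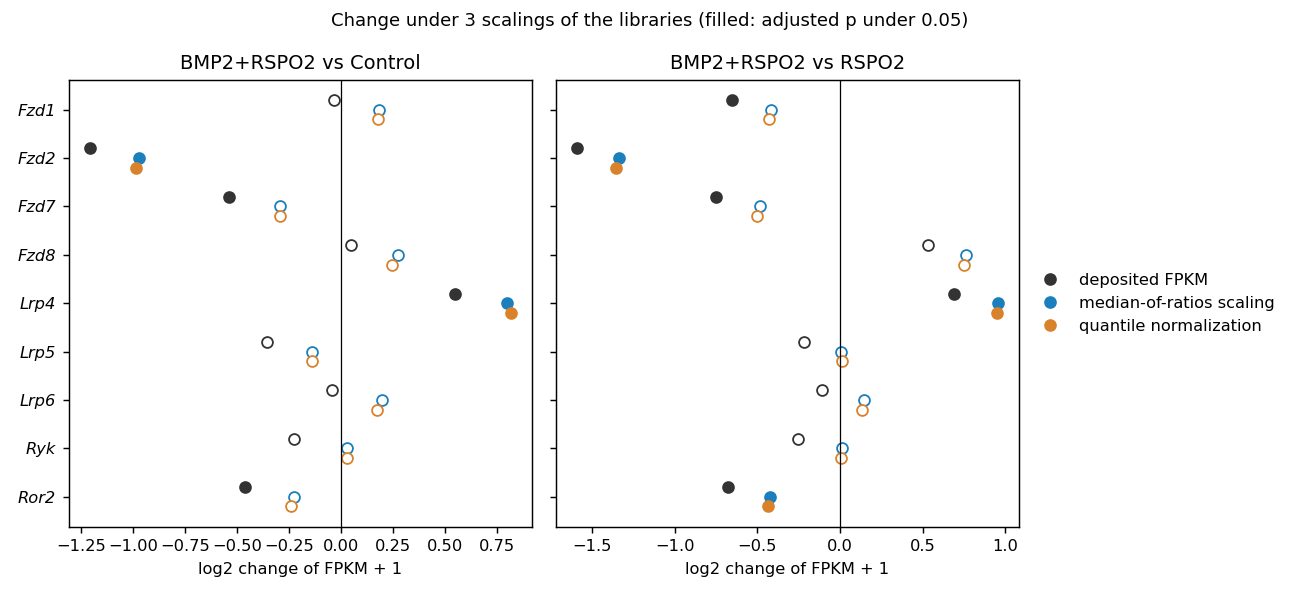
Log2 change (x axis) of the 9 tested members with both proteins, against Control and against RSPO2, on the deposited FPKM, after median-of-ratios scaling and after quantile normalization, with filled points for an adjusted p under 0.05. Fzd2 and Lrp4 are filled under all 3 scalings in both panels, and Ror2 in the panel against RSPO2.

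Whether RSPO2 acted differently in the presence of BMP2 was asked with the interaction, the log2 change with RSPO2 given BMP2 minus the change without it. None of the 9 members was called by limma, where 0.294% of tested genes were, and 4 had an unadjusted p under 0.05. The values were -0.67 ± 0.18 for Fzd1 (adjusted p 0.176), -0.86 ± 0.20 for Fzd2 (adjusted p 0.118), 0.71 ± 0.18 for Lrp4 (adjusted p 0.139) and -0.50 ± 0.15 for Ror2 (adjusted p 0.221). For Fzd1 the log2 change with RSPO2 was 0.62 without BMP2 and -0.04 with it, and for Lrp4 it was -0.14 without BMP2 and 0.57 with it. Without Control replicate 1 Fzd2 was called (-0.999, adjusted p 0.0476), and without BMP2+RSPO2 replicate 1 Ror2 was called (-0.60, adjusted p 0.0405).

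Since the first replicates differed from the others in proliferation genes and in the osteoblast sum, the fit was repeated on replicates 2 and 3 alone. It called 3 members with RSPO2 against Control, Fzd1 (log2 change 0.72, adjusted p 0.0354) and Fzd2 (0.44, adjusted p 0.0331) as higher and Fzd8 (-0.56, adjusted p 0.0303) as lower, where 1.69% of tested genes were called. It called 3 members in the interaction, Fzd1 (-0.92, adjusted p 0.0185), Fzd2 (-0.83, adjusted p 0.00663) and Ror2 (-0.63, adjusted p 0.0154), where 9.60% of tested genes were called. The part of proliferation or of differentiation in these results was not tested.

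The ratio of 2 genes within a library does not depend on how that library was scaled. Summed over the 5 frizzled members, Control libraries held 49.0 FPKM ± 3.08, RSPO2 libraries 58.6 ± 3.87, BMP2 libraries 33.8 ± 1.95 and BMP2+RSPO2 libraries 32.4 ± 4.89 (SD, n = 3 each). Unlike a ratio, this sum depends on the scaling, and it is not the sum of all frizzled genes. It leaves out Fzd5, whose means ran the other way, at 7.20, 3.61, 13.9 and 9.87 FPKM in the same order of arms. The changes of Fzd5 against Control did not pass the limma test (adjusted p 0.670 with RSPO2, 0.145 with BMP2 and 0.196 with both proteins). In the same order of arms, Fzd2 held 34.8% ± 4.39, 38.3% ± 1.62, 29.0% ± 1.41 and 21.0% ± 1.15 of this sum. Its libraries with both proteins, at 19.7% to 21.8%, were below all others. Fzd7 held 42.2% ± 0.870, 41.1% ± 1.74, 34.3% ± 2.93 and 43.3% ± 5.39 in the same order, with no order between Control and both proteins. Fzd8 held 12.6% ± 3.14, 6.94% ± 1.18, 22.0% ± 4.44 and 19.5% ± 2.38.

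The ratio of Fzd7 to Fzd2, in that order of arms, was 1.23 ± 0.168, 1.07 ± 0.0119, 1.18 ± 0.0654 and 2.07 ± 0.344. Its 3 values with both proteins, from 1.70 to 2.38, were above all 9 others, which ran from 1.03 to 1.35. The ratio of Lrp4 to Lrp6 was 1.81 ± 0.252, 1.56 ± 0.243, 1.97 ± 0.362 and 2.79 ± 0.361 in the same order of arms, and again all libraries with both proteins, from 2.38 to 3.06, were highest. Lrp6 exceeded Lrp5 in all 12 libraries, by a ratio of 1.15 to 3.82. These sums, shares and ratios are descriptions without a test.

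**Figure D4:**
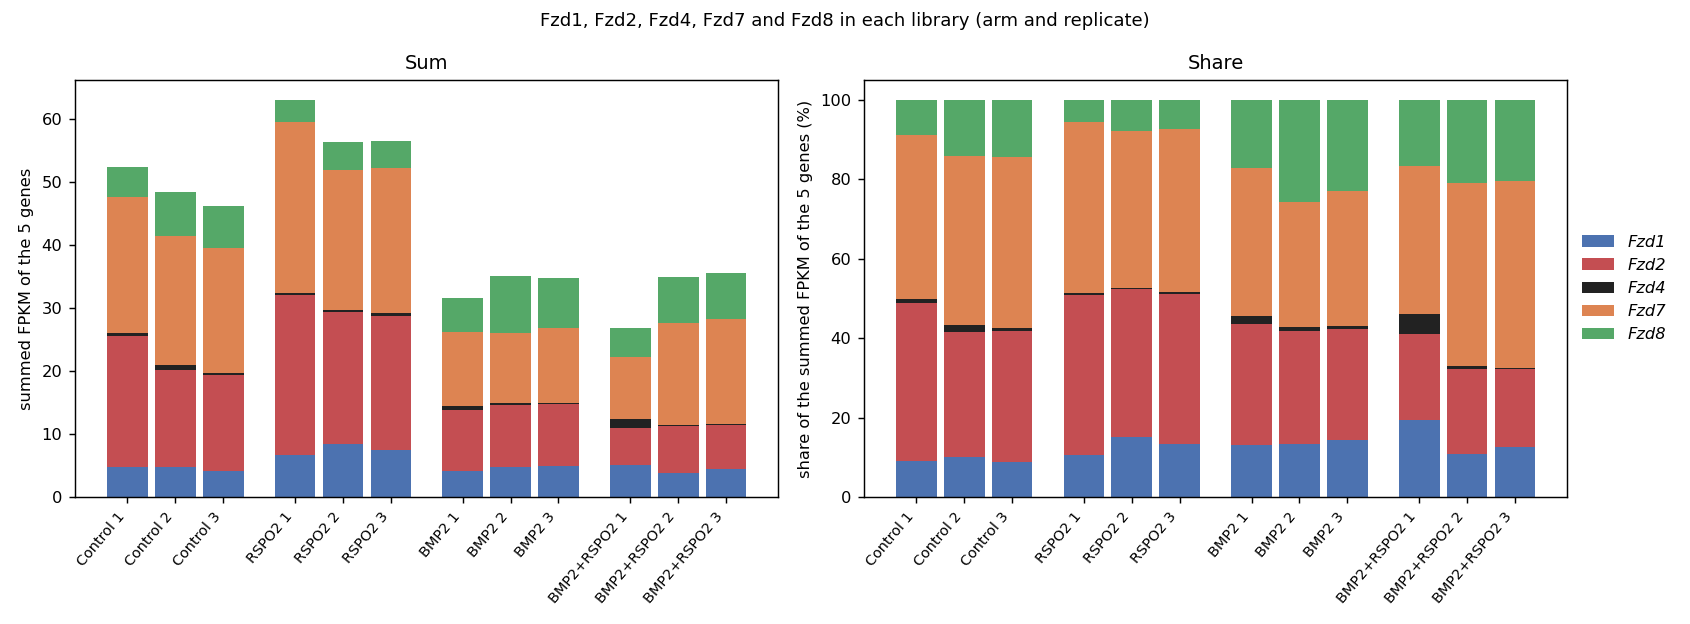
Stacked bars of the FPKM of Fzd1, Fzd2, Fzd4, Fzd7 and Fzd8 in each library (left, summed FPKM; right, percent of that sum), ordered by arm and replicate. The bars are shorter with BMP2 and with both proteins, and the part of Fzd2 is smallest, at 19.7% to 21.8%, in the 3 BMP2+RSPO2 libraries. Fzd5 and the other frizzled genes outside the members are not in the bars. The mean of Fzd5 was higher in the arms with BMP2, but no change against Control passed the test.

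The other genes of the pathway were counted from lists by role, and the counts below are for both proteins against Control unless another comparison is named. In that comparison 3.65% of all tested genes were called higher and 19.4% lower, and 6.69% and 7.55% after median-of-ratios scaling. The lists are short, and a count near these shares says nothing particular about a list. Of 11 other Wnt receptors, 5 were tested, 1 fell and none rose. The one that fell was Ror1, the sister gene of Ror2, from 3.21 FPKM ± 0.583 to 1.12 ± 0.630 (log2 change -1.02 ± 0.19, adjusted p 0.00541), also after median-of-ratios scaling (-0.86, adjusted p 0.0173). Fzd5, a frizzled outside the 10 members, had means of 7.20 ± 2.29 (Control), 3.61 ± 1.05 (RSPO2), 13.9 ± 2.97 (BMP2) and 9.87 ± 0.582 (both), and rose from RSPO2 to both proteins (1.26, adjusted p 0.00443). Against Control it was not called in any arm with all libraries. On replicates 2 and 3 alone it was called lower with RSPO2 and higher with BMP2.

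Of 11 genes for receptor folding, turnover and R-spondin reception, 7 were tested, 3 rose and 2 fell. Lgr4, which encodes an R-spondin receptor, rose from 3.97 ± 0.566 to 6.59 ± 0.265 (0.62, adjusted p 0.00742), and Rnf43, whose product removes frizzled proteins, rose from 2.87 ± 0.0777 to 4.98 ± 1.28 (0.61, adjusted p 0.0168). Adgra2, a partner in WNT7 signalling, fell from 19.7 ± 4.07 to 7.27 ± 2.11 (-1.33, adjusted p 0.00118). The list's median log2 change was 0.41, beside -0.26 for all tested genes, and after median-of-ratios scaling 4 rose and 1 fell.

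Of 10 genes for ligands and partners that inhibit or bridge LRP4, LRP5 and LRP6, 5 were tested, none rose and 2 fell: Dkk3, a member of the dickkopf family, from 70.5 ± 3.19 to 49.3 ± 6.66 (-0.51, adjusted p 0.00877), and Kremen1, a dickkopf receptor, from 23.6 ± 2.73 to 18.4 ± 0.970 (-0.34, adjusted p 0.0490). Neither was called after median-of-ratios scaling. Of 6 secreted decoys of Wnt or frizzled, 2 were tested: Sfrp2 fell from 61.2 ± 5.04 to 15.2 ± 1.87 (-1.95, adjusted p 2.85e-05) and Wif1 rose from 33.6 ± 18.2 to 196 ± 92.2 FPKM (2.54 ± 0.57, adjusted p 0.0112), both also after that scaling. The summed FPKM of the decoys with both proteins was 107 in replicate 1 and 262 and 266 in replicates 2 and 3. Sfrp2 was at 102 ± 16.5 with RSPO2 and 25.2 ± 1.79 with BMP2, the same order of arms as Fzd2.

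Of 16 cytoplasmic transducers, 13 were tested, 1 rose and 3 fell on the deposited scale, and 1 rose and none fell after median-of-ratios scaling. Of 14 planar polarity and non-canonical partners, 7 were tested and none was called. Of 19 Wnt ligand genes, 9 were tested, none rose and 1 fell: Wnt7b, from 2.24 FPKM to 0.333 (-1.29, adjusted p 0.00154). Wnt4 was called higher in addition after median-of-ratios scaling, and Wnt4, Wnt5a and Wnt11 after quantile normalization. Of 14 canonical targets, 10 were tested, 3 rose (Rnf43, Tcf7 and Wif1) and 2 fell (Nkd2 and Tnfrsf19), the second of which was not called after median-of-ratios scaling. With RSPO2 alone 1 of the 10 rose, Nkd2, from 1.26 ± 0.465 to 6.34 ± 0.365 (1.72, adjusted p 0.00894), and Axin2, the standard reporter of the canonical pathway, was at 4.17 in Control and 11.7 with RSPO2 without passing the test. On replicates 2 and 3 alone 6 of the 10 were called higher with RSPO2 (Nkd2, Axin2, Notum, Lef1, Tnfrsf19 and Apcdd1), with a log2 change of 1.31 for Axin2 (adjusted p 0.00481). With RSPO2 against Control, 0.0779% of all tested genes were called with all libraries and 1.69% on replicates 2 and 3 alone.

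Several of these counts with both proteins against Control moved without BMP2+RSPO2 replicate 1. Then 3 transducers were called higher (Csnk1g3, Csnk1e and Dvl1) and 1 lower (Dvl2), 3 Wnt ligand genes higher (Wnt5b, Wnt10b and Wnt11) and 1 lower, and among the genes that inhibit or bridge LRP4, LRP5 and LRP6, Agrn, which encodes agrin, was called higher and Dkk3 lower. In that fit 610 of the 11548 tested genes were called higher and 2148 lower.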

How the data were processed

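The data are poly(A) RNA-seq of 12 libraries, 3 in each of 4 arms, from stranded libraries per the labels' protocols. Per the submitters' processing notes, the tools were cutadapt 1.10, FastQC 0.10.1, HISAT2 2.0, StringTie 1.3.4 and edgeR, the last without a stated version or role, and the builds GRCm38 and mm10. The authors deposited 1 FPKM value per gene and library, rounded to 2 decimals, under gene identifiers of the C57BL/6NJ strain, so coordinates here come only from the GRCm38 reference. The deposited table also holds p-value and q-value columns that name no groups and were not used here. Low values showed no steps of whole reads (the most common log ratio between libraries took in 2.077% to 4.432% of genes over 66 pairs), so no counts were recovered and depth is unknown.

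Log2(FPKM + 1) was fitted, for genes that reached 1 FPKM in 3 or more libraries, over the 4 arms with limma 3.58.1 (R 4.3.3, trended prior, 8 residual degrees of freedom), for 5 pairwise comparisons and the interaction. Tests were two-sided, with Benjamini-Hochberg adjustment over the 11548 tested genes of a comparison. The script was tested on simulated data. The alternatives were a pseudocount of 0.1, no filter, quantile normalization, median-of-ratios scaling, the replicate number as a block, the fit without the first replicates, and leaving out each library. Named were all 10 members, for each called member the 3 most correlated genes with a symbol, and from each of 8 pathway lists up to 4 called genes by smallest p. The members, the lists and the 9 cell marker lists were chosen with earlier results of these data known. No amino acid sequences were used here.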

Additional observations from a re-analysis of the deposited data

Results flagged for a closer look

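For Fzd2 and Ror2, every RSPO2 library was above every Control library, while every BMP2+RSPO2 library was below every BMP2 library, so that RSPO2 went with opposite orders in the absence and presence of BMP2. For Ror2 the nearest libraries of the second pair, at 10.45 and 10.46 FPKM, were level. The difference between the log2 changes was tested with the interaction: it was -0.86 for Fzd2 (limma, adjusted p 0.118) and -0.50 for Ror2 (adjusted p 0.221), and neither passed. After median-of-ratios scaling the values were -0.67 (adjusted p 0.163) and -0.31 (adjusted p 0.566). Of all tested genes, 5.81% had RSPO2 libraries entirely above Control, and the median log2 change from BMP2 to both proteins was -0.19. The share of all tested genes with both orders was not counted, so how common this pattern is cannot be said.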

How the results depend on the processing

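The numbers below are log2 changes or counts of calls by limma, and the cause of each difference was not tested. Of the 54 member results, 40 kept their direction and their side of the threshold under median-of-ratios scaling and 40 under quantile normalization, 52 without the filter, 53 with a pseudocount of 0.1 and 38 without the first replicates. The calls lost under both scalings were Fzd7 with BMP2 and with both proteins against Control, Ror2 with both proteins against Control, and Fzd1 and Fzd7 with both proteins against RSPO2.

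Values close to 0 changed sign under scaling, given for median-of-ratios and then quantile: Lrp4 (0.042, 0.046) and Ryk (0.037, 0.046) with BMP2, Fzd1 (0.18, 0.18), Lrp6 (0.20, 0.17) and Ryk (0.028, 0.028) with both proteins against Control, Fzd1 (0.12, 0.11) against BMP2, and Lrp5 (0.0073, 0.011), Lrp6 (0.15, 0.13) and Ryk (0.011, 0.0083) against RSPO2. Without the first replicates, Ryk with RSPO2 was -0.0025, Lrp4 with BMP2 was 0.018, and Lrp6 was -0.11 with both proteins against BMP2 and -0.20 in the interaction. Over the fits that left out 1 library or the first replicates, values ran from -0.0055 to 0.10 for Ryk with RSPO2, from -0.047 to 0.075 for Fzd1 and -0.094 to 0.069 for Lrp4 with BMP2, and from -0.12 to 0.060 for Fzd1, -0.10 to 0.25 for Fzd8 and -0.17 to 0.042 for Lrp6 with both proteins against Control. Against BMP2 they ran from -0.13 to 0.050 for Fzd1, -0.39 to 0.0021 for Fzd8 and -0.11 to 0.17 for Lrp6, and in the interaction from -0.085 to 0.32 for Fzd7 and -0.20 to 0.10 for Lrp6.

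Counts of all genes called are given in the order RSPO2, BMP2 and both proteins against Control, both against BMP2, both against RSPO2, and the interaction. They were 9, 175, 2656, 506, 3015 and 34 with the main settings, 6, 166, 1639, 258, 1800 and 15 with median-of-ratios scaling, 5, 170, 1626, 261, 1825 and 12 with quantile normalization, and 195, 963, 3994, 2512, 4314 and 1109 without the first replicates. After the median-of-ratios scaling the calls higher and lower were 71 and 95 with BMP2 against Control, 129 and 129 with both against BMP2, 844 and 956 against RSPO2, and 3 and 12 in the interaction, where the main settings gave 59 and 116, 74 and 432, 499 and 2516, and 1 and 33. A pseudocount of 0.1 gave 0 genes with RSPO2, and no filter gave 306 with both proteins against BMP2. Leaving out each library gave 0 to 21, 65 to 403, 1595 to 2758, 60 to 709, 1847 to 3058 and 0 to 187 genes.

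Counts of members called in that order were 0, 2, 4, 1, 5 and 0 with the main settings, 0, 1, 2, 1, 3 and 0 under either scaling, 3, 2, 4, 5, 7 and 3 without the first replicates, and 0 to 0, 0 to 2, 3 to 4, 0 to 3, 5 to 6 and 0 to 1 when each library was left out. With BMP2 against Control, 1 member was called with a pseudocount of 0.1 and 1 without the filter.

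Replicate numbers could mark shared batches, but the labels do not say so: 16 of 18 same-numbered pairs had correlated deviations over 0.1 (r -0.12 to 0.63), and 9 of 12 libraries correlated best with their own number. With the replicate block, 26, 329, 3897, 1710, 4159 and 91 genes and 0, 1, 4, 2, 6 and 0 members were called. The block lost Fzd7 with BMP2 against Control (adjusted p 0.0555) and added Lrp5 lower against BMP2 (-0.60, 0.0450) and Fzd8 higher against RSPO2 (0.53, 0.00535), both with both proteins; it changed no other call of a member.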

Other observations

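Across the 12 libraries, Fzd2 and Ror2 were the most alike pair of members (Pearson r of log2(FPKM + 1) 0.90), followed by Fzd2 with Fzd7 (0.85), and Lrp4 ran against Ror2 (-0.74) and Fzd2 (-0.70). Outside the members, the genes most like Fzd2 were Tnnc2 (0.99), Fbln5 (0.99), which encodes an elastic fibre protein, and Fstl1 (0.99), which encodes a secreted follistatin relative. Those most like Ror2 were Hdgfrp3 (0.99), Ifi47 (0.98) and Thbs2 (0.98), which encodes a matrix thrombospondin. Lrp4 was nearest to Osbpl8 (0.94), Camk2n2 (0.91) and Zfc3h1 (0.91), Fzd7 to Ralgps2 (0.96), Kif13a (0.96) and Etnk1 (0.94), and Fzd1 to Vash2 (0.96), Neurog2 (0.90) and Smim3 (0.89). These values share the 4 arms and the 12 libraries, and are descriptions.

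Of the 9 tested osteoblast markers 8 rose and none fell with both proteins against Control, where 3.65% of tested genes were called higher and 19.4% lower. With BMP2 against Control 2 of them rose, where 1.52% of tested genes were called in either direction. Chondrocyte markers summed to 3.89 to 44.1 FPKM with 1 of 2 tested genes higher with both proteins, adipocyte markers to 0.94 to 4.37 with 1 of 1 lower, and osteocyte markers to 53.6 to 775.8 with none of 2 called. With both proteins the osteocyte sum was 71.3 in replicate 1 and 775.5 and 775.8 in replicates 2 and 3. Skeletal muscle markers summed to 0.67 to 3.49 FPKM, endothelial markers to 0.16 to 5.49 with the highest value in BMP2+RSPO2 replicate 1, and blood markers to 1.36 to 6.89, with none called. None of the 12 proliferation genes was called in the 6 comparisons, but their first replicates differed widely from the others within each arm, which widens the spread in the test. The lack of calls therefore does not show that the arms were alike. From BMP2 to both proteins their median log2 change was -1.02, beside -0.19 for all tested genes. In replicates 2 and 3 their summed FPKM was 224 and 235 with BMP2 and 91.0 and 89.2 with both proteins.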
